A study of Mus musculus with 6 samples.

Results

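The glutamate, GABA and glycine receptor genes were examined in RNA-seq of whole mouse retina. They were taken by symbol from the mRNA table of the BWA workflow, as the AMPA (*Gria*), kainate (*Grik*), NMDA (*Grin*), delta (*Grid*) and metabotropic (*Grm*) glutamate receptors, the GABA-A and rho subunits (*Gabr*), the GABA-B subunits (*Gabbr*) and the glycine receptors (*Glra*, *Glrb*). Values are given for 36 receptor genes out of 12145 genes in the table, with 46 of its 15142 transcripts, and 7 of the 36 had more than 1 transcript. The 6 libraries came from retinas at postnatal day 21, 3 of wild type (WT) and 3 of *Nrl*-/- mice, all labelled as strain C57BL/6. By the study's methods the WT mice were of the C57Bl/6J substrain, which was also the background of the *Nrl*-/- line. *Nrl* encodes the transcription factor that sets the rod fate. The *Nrl*-/- mice lack the gene in all cells, and their photoreceptors are cone-like, so that the comparison asks how a retina without rods differs from one in which rods are the most common cell. Each library was made from RNA of a separate mouse.

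Photoreceptors and bipolar cells of the retina release glutamate, and horizontal and amacrine cells use GABA or glycine. AMPA, kainate and NMDA receptors are glutamate-gated cation channels of 4 subunits, and metabotropic glutamate receptors act through G proteins. GABA-A and glycine receptors are chloride channels of 5 subunits. In the retina, OFF bipolar cells sense the glutamate of cones through AMPA and kainate receptors, the rho subunits form the slow GABA-C receptor of bipolar cell terminals, and alpha, beta and gamma subunits form the fast GABA-A receptors of most inner neurons.

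Levels are given as FPKM, fragments per unit of exon length and of mapped reads. Ranks between genes are approximate, since the alignment did not cross splice junctions. The paper also found that its BWA workflow underestimated several housekeeping genes. They were computed as 2 to the power of the deposited log2(FPKM + 1), less 1. Fold changes are on the log2(FPKM + 1) scale, as the mean of *Nrl*-/- less that of WT libraries, with a standard error (SE), and understate the change of low genes. A gene was represented by its transcript with the highest mean FPKM, and a call, higher or lower, was made where the adjusted p was under 0.05 in limma, a linear model with a spread shared across transcripts, with Benjamini-Hochberg adjustment over all 15142 transcripts. Since the table keeps only transcripts that reached an FPKM of about 1 in at least 1 library, a receptor with no entry in it was not tested.

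The libraries carried the genotypes of their labels. *Nrl* had an FPKM of 500.0 to 583 in the WT and 0.879 to 0.959 in the *Nrl*-/- libraries. Summed over 6 rod markers the FPKM was 13500 to 13600 in WT and 17.5 to 18.4 in *Nrl*-/- retina, and over 6 cone markers it was 299 to 356 and 4920 to 5050. The summed FPKM of 9 bipolar cell markers was 320 to 346 in WT and 461 to 511 in *Nrl*-/- retina, with 4 of the 9 called higher (44.4%, against 28.3% of all genes) and 1 lower (11.1%, against 10.2%). The most changed of them was *Cabp5*, which encodes a calcium binding protein, at 38.0 in WT and 162 in *Nrl*-/- retina. Most of the rise in the sum was that of *Cabp5*. The marker called lower was *Prkca*, at 41.5 and 31.8 (log2 fold change -0.37, adjusted p = 0.0044 from limma). *Vsx1*, at 8.81 and 8.89, and *Car10*, at 20.4 and 21.2, were not called. For 7 of 10 amacrine cell markers that were listed the sums were 210 to 244 and 212 to 233, with 0 called by limma, for 9 ganglion cell markers 379 to 426 and 384 to 405, and for 5 of 6 horizontal cell markers 64.3 to 73.9 and 66.2 to 67.5. The part of the rod, cone and bipolar cell marker changes in the receptor values was not tested. In RNA of whole retina, more cells of a type and more RNA per cell cannot be told apart.

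By the transcript that represented each gene, the mean FPKM of the 36 receptors in a genotype ran from 0.888, of *Grin2b*, to 33.8, of *Gabrr1*. In 33 of them every library was at an FPKM of at least 1, and 12 had a mean of at least 10 in a genotype. Summed over all transcripts of a class, the AMPA receptor subunits had 75.2 ± 1.63 in WT and 83.2 ± 0.358 in *Nrl*-/- retina (SD, n = 3). The rho subunits had 69.1 ± 3.26 and 73.1 ± 3.15, the kainate receptor subunits 41.4 ± 3.17 and 45.5 ± 0.968, the glycine receptors 39.5 ± 0.422 and 39.8 ± 1.92, the GABA-B subunits 35.7 ± 4.45 and 35.9 ± 1.12, and the NMDA receptor subunits 19.2 ± 4.23 and 18.5 ± 0.312. The sums were not tested, and they are on the deposited scale. The median-of-ratios scaling factors were 0.955 to 0.972 in the WT and 1.03 to 1.04 in the *Nrl*-/- libraries, and were not applied to the sums. The family members *Grik4*, *Grin2a*, *Grin2c*, *Grin3b*, *Grm3*, *Gabra5*, *Gabra6*, *Gabre*, *Gabrp* and *Gabrq* had no entry in the table and were not analysed here.

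**Figure D1:**
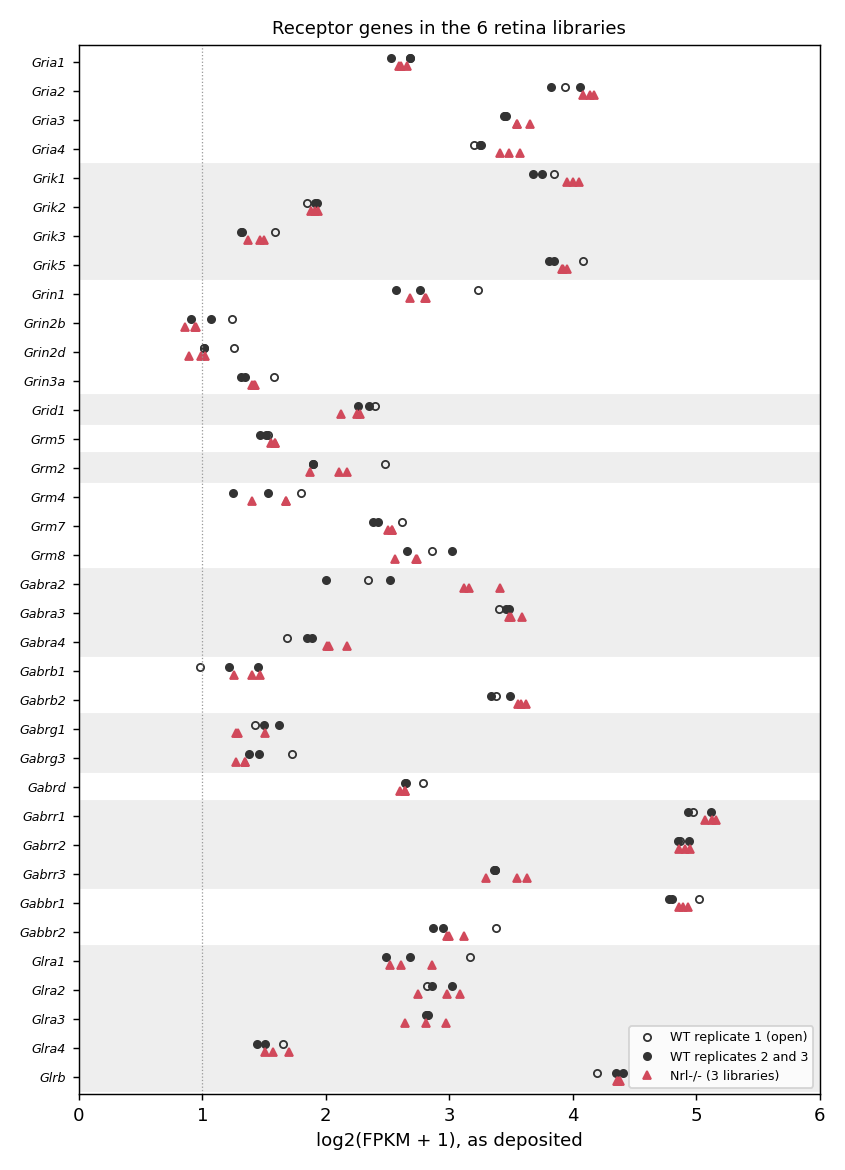
Deposited log2(FPKM + 1) of each receptor gene (rows, shaded by subunit class) in each library, with WT libraries as circles (replicate 1 open) and *Nrl*-/- libraries as triangles. The triangles of *Gabra2* lie clear of the circles, and the open circle lies to the right of the other WT circles in *Grin1*, *Grm2*, *Gabbr2* and *Glra1*.

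Few of the 36 receptor genes changed. In *Nrl*-/- retina 5 were called higher, where 28.3% of all genes tested were, and 0 were called lower, where 10.2% of all genes were. At an unadjusted p under 0.05, limma gave 7 higher and 0 lower, and an ordinary linear model also gave 7 and 0. The share over all genes at an unadjusted p was not computed. At the adjusted p the ordinary linear model had 2 receptors higher and 0 lower, against 20.5% and 7.9% of all genes. The 5 called higher by limma were the GABA-A subunits *Gabra2*, *Gabra4* and *Gabrb2*, the AMPA subunit *Gria4* and the kainate subunit *Grik1*. Of these, *Gabra2* changed by at least 1.5-fold on the log2(FPKM + 1) scale (1 of 36 higher and 0 lower, against 5.78% and 3.72% of all genes). The median log2 fold change was 0.03 over the receptors and 0.09 over all genes. In 8 receptors every *Nrl*-/- library lay above every WT library (36.5% of all genes), and in 1, *Gabrg3*, every *Nrl*-/- library lay below (14.5% of all genes).

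Scaling moved these counts. With median-of-ratios or upper-quartile scaling or quantile normalization, the median over all genes was 0.00 and that over the receptors was -0.06, and *Gabra2* was the 1 receptor called. Genes called higher were then 52.5% to 52.6% of all called genes, against 73.5% on the deposited scale. *Gabra2* was also the 1 receptor called without *Nrl*-/- replicate 1, and *Gabra2* and *Gria4* were the 2 called without *Nrl*-/- replicate 2. For the 31 receptors not called, the 95% interval of the log2 fold change lay between -0.48 and 0.44 in every case. With the pseudocount removed, 5 of the 31 intervals reached a change of 1.5-fold in FPKM, those of *Grin2b*, *Grin2d*, *Gabrb1*, *Gabrg1* and *Gabrg3*, each with a WT mean of at most 1.89. The lower bounds of *Glra1* and *Grm2*, at FPKM ratios of 0.669 and 0.684, came close to a fall of 1.5-fold. These FPKM intervals are on the deposited scale and were not computed with the scalings.

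**Figure D2:**
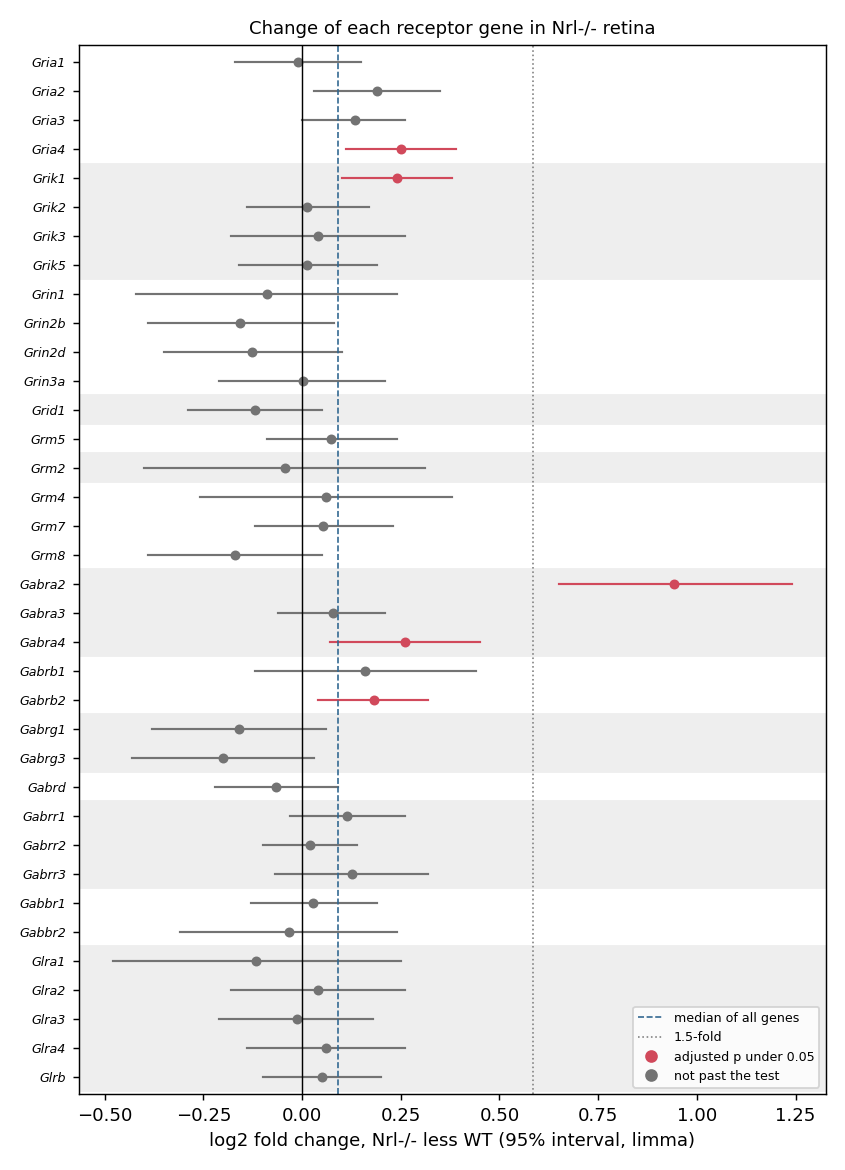
Log2 fold change of each receptor gene on the log2(FPKM + 1) scale in *Nrl*-/- less WT retina with its 95% interval from limma, with the 5 genes past the adjusted p in red. The dashed line is the median of all genes, at 0.09, and the interval of *Gabra2* alone lies beyond the dotted line at 1.5-fold.

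*Gabra2* had the largest change of the 36 receptors. It encodes the alpha2 subunit of GABA-A receptors and spans 71352296 to 71487088 of chromosome 5, minus strand, in NCBIM37, which is mm9. The FPKM was 4.06, 4.74 and 3.0 in the WT and 7.69, 7.94 and 9.63 in the *Nrl*-/- libraries, so that the lowest *Nrl*-/- library was above the highest WT library. The log2 fold change was 0.94 (SE 0.13, adjusted p = 5.6e-04 from limma), with a 95% interval of 0.65 to 1.24. It was between 0.80 and 1.10 in 17 alternative settings and passed the adjusted p in each of them. The files hold no genotypes, so whether the WT and *Nrl*-/- mice carried the same sequence at *Gabra2* was not tested. RefSeq promoter windows were at hand for 26 of the 36 receptors, and that of *Gabra2* is shown since it belongs to the most changed member. The 250 bases before its start matched 1 place in NCBIM37, chr5:71487089-71487338 on the minus strand.
*Gabra2* promoter: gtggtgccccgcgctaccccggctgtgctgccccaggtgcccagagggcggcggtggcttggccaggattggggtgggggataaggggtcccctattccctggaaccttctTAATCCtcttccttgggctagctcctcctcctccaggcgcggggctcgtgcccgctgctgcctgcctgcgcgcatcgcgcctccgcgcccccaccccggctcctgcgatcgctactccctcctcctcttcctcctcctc
The capitals mark the letters TAATCC, the core of the sites bound by CRX, a photoreceptor transcription factor. TAATCC, on either strand, was in 6.25% of 32817 windows of this length and in 2 of the 33 windows of receptor genes, those of *Gabra2* and *Gabrr2*. TGCTGA, part of the sites bound by NRL and other MAF proteins, was on either strand in 16.1% of all windows and in 6 of the 33, of 5 genes, and its letters were not in that of *Gabra2*. Such matches describe letters and not binding.

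*Gabra4*, the alpha4 subunit, had an FPKM of 2.23, 2.71 and 2.61 in WT and 3.03, 3.08 and 3.5 in *Nrl*-/- libraries, with a log2 fold change of 0.26 (SE 0.08, adjusted p = 0.038 from limma). *Gabrb2*, the beta2 subunit, had 9.41, 10.2 and 9.13 in WT and 11.3, 10.8 and 11.0 in *Nrl*-/- libraries, with a log2 fold change of 0.18 (SE 0.06, adjusted p = 0.044). The genotypes did not overlap in either gene, but the calls were close to the threshold. *Gabra4* was not past it without WT replicate 1 (adjusted p = 0.087) or without *Nrl*-/- replicate 1, 2 or 3 (0.073, 0.083 and 0.13). *Gabrb2* was not past it without WT replicate 1 or 3 (adjusted p = 0.072 and 0.081), without *Nrl*-/- replicate 1, 2 or 3 (0.16, 0.11 and 0.10) or with the replicate number as a block (0.07).

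*Gabra3* and *Gabrb1*, the alpha3 and beta1 subunits, were not called. The log2(FPKM + 1) of *Gabra3* was 3.40, 3.48 and 3.46 in WT and 3.50, 3.59 and 3.48 in *Nrl*-/- libraries, where *Nrl*-/- replicate 3 equalled the highest WT library (log2 fold change 0.08, SE 0.06, adjusted p = 0.35). The FPKM of *Gabrb1* was 0.972, 1.73 and 1.33 in WT and 1.77, 1.64 and 1.39 in *Nrl*-/- libraries, with a wide overlap (log2 fold change 0.16, SE 0.12, adjusted p = 0.35). The gamma1 and gamma3 subunits *Gabrg1* and *Gabrg3* were low as well. *Gabrg1* had an FPKM of 1.69, 1.83 and 2.07 in WT and 1.41, 1.85 and 1.45 in *Nrl*-/- libraries, with overlap (log2 fold change -0.16, SE 0.10, adjusted p = 0.23), and *Gabrg3* had 2.32, 1.60 and 1.75 and then 1.55, 1.55 and 1.41, with no overlap (log2 fold change -0.20, SE 0.10, adjusted p = 0.16).

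**Figure D3:**
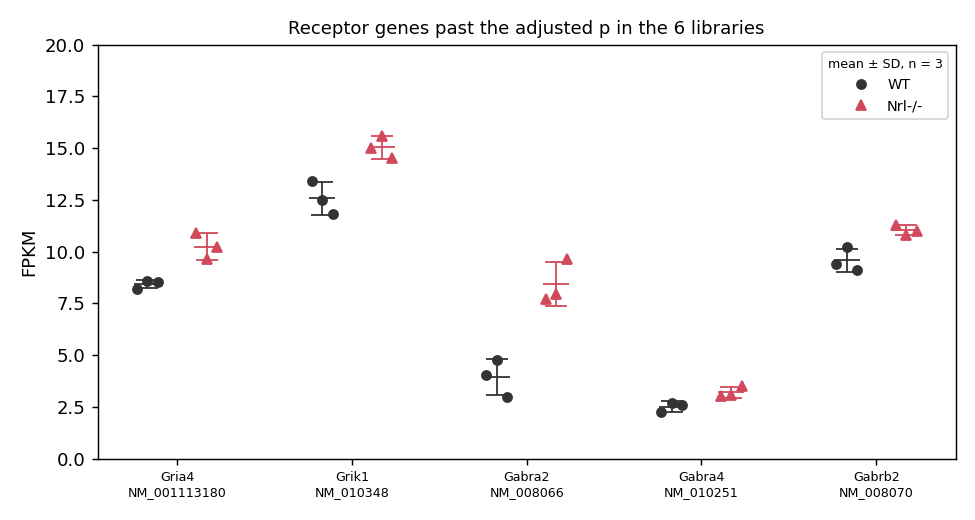
FPKM of the 5 receptor genes past the adjusted p in each library, with WT as circles, *Nrl*-/- as triangles, and the mean ± SD of 3 libraries as bars. The genotypes are apart in all 5, by the widest relative gap in *Gabra2*, with WT at 3.0 to 4.74 and *Nrl*-/- at 7.69 to 9.63.

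Neighbouring subunit genes on chromosome 5 had unlike values. In order, *Gabrg1*, *Gabra2*, *Gabra4* and *Gabrb1* lie between 71142286 and 72529628, with log2 fold changes of -0.16, 0.94, 0.26 and 0.16, of which *Gabra2* and *Gabra4* were called. The rho genes *Gabrr2* and *Gabrr1* are neighbours on chromosome 4, between 33149974 and 33250563, at 0.02 and 0.11.

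The rho subunits were not called. By the main transcript of each gene, *Gabrr1* had the highest FPKM of the 36 receptors. The transcripts of *Gria2* had WT means of 14.4, 11.5 and 9.66 and were not summed in this ranking. In the pooled TopHat sums *Gabbr1*, at 44.4 in WT and 43.5 in *Nrl*-/- retina, was above *Gabrr1*, at 40.9 and 43.4. *Gabrr1*, the rho1 subunit, had an FPKM of 30.3, 33.8 and 29.5 in WT and 34.8, 34.0 and 32.6 in *Nrl*-/- libraries, and the genotypes overlapped (log2 fold change 0.11, SE 0.06, adjusted p = 0.20 from limma). Its 95% interval was -0.03 to 0.26. *Gabrr2*, the rho2 subunit, had means of 28.6 ± 0.977 and 29.0 ± 0.936 (SD, n = 3), with a 95% interval of -0.10 to 0.14. *Gabrr3*, the rho3 subunit, had 9.27, 9.34 and 9.34 in WT and 11.4, 10.7 and 8.85 in *Nrl*-/- libraries, so that *Nrl*-/- replicate 3 alone was below the WT libraries. Its log2 fold change was 0.13 (SE 0.09, adjusted p = 0.28) and was not called. It was 0.22 without *Nrl*-/- replicate 3 (adjusted p = 0.04), 0.06 without *Nrl*-/- replicate 1 (0.69) and 0.03 with median-of-ratios scaling (0.82). *Gabrd*, the delta subunit of receptors outside synapses, had 5.92, 5.23 and 5.28 in WT and 5.23, 5.06 and 5.23 in *Nrl*-/- libraries, and was not called (log2 fold change -0.07, SE 0.07, adjusted p = 0.48).

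The GABA-B receptor is a G protein-coupled dimer of the products of *Gabbr1* and *Gabbr2*. *Gabbr1* had an FPKM of 31.4, 26.9 and 26.5 in WT and 28.0, 29.5 and 28.7 in *Nrl*-/- libraries (log2 fold change 0.03, SE 0.07, adjusted p = 0.80 from limma). *Gabbr2* had 9.41, 6.73 and 6.31 in WT and 7.0, 7.69 and 6.89 in *Nrl*-/- libraries. In both genes WT replicate 1 was the highest of the 6 libraries, and WT replicates 2 and 3 were below the 3 *Nrl*-/- libraries. *Gabbr1* and *Gabbr2* were not called.

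Of the 5 glycine receptor genes, 0 were called by limma, with 0 at an unadjusted p under 0.05 by limma or an ordinary linear model. *Glrb*, the beta subunit that anchors the receptor at synapses, was the most abundant, with 17.4, 19.4 and 20.3 in WT and 19.5, 19.8 and 19.7 in *Nrl*-/- libraries (log2 fold change 0.05, SE 0.06, adjusted p = 0.59). The alpha subunits *Glra1*, *Glra2* and *Glra3* had similar levels, with means of 6.01 ± 1.77, 6.48 ± 0.558 and 6.06 ± 0.0489 in WT and 5.37 ± 0.795, 6.71 ± 0.907 and 6.03 ± 0.801 in *Nrl*-/- retina (SD, n = 3). These levels did not differ beyond their spread. *Glra4*, the alpha4 subunit, was lower than the others, at 1.90 ± 0.217 and 2.02 ± 0.206. *Glra2*, *Glra4*, *Gria3* and *Gabra3* lie on the X chromosome. *Xist*, the RNA of the silenced X chromosome, was at 186 in WT replicate 2 and below 0.05 in the other 5 libraries. The log2(FPKM + 1) in WT replicates 1, 2 and 3 was 3.45, 3.44 and 3.46 for *Gria3*, 3.40, 3.48 and 3.46 for *Gabra3*, 2.82, 2.86 and 3.02 for *Glra2* and 1.65, 1.51 and 1.44 for *Glra4*. *Xist* was thus high in a WT library and in none of the *Nrl*-/- libraries. The part of *Xist*, or of the sex of the mice, in these values and in those of the other receptors was not tested.

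Among the AMPA receptor subunits, *Gria2*, which limits the calcium flux of the channel, was the most abundant. Its main transcript NM_001039195 had an FPKM of 14.3, 15.7 and 13.1 in WT and 16.6, 15.9 and 17 in *Nrl*-/- libraries. The genotypes were just apart, with a log2 fold change of 0.19 (SE 0.07, adjusted p = 0.062 from limma), and it was not called. It was 0.25 without WT replicate 2 (adjusted p = 0.025), 0.13 without WT replicate 3 (0.13), and 0.07 to 0.09 with the 3 scalings (0.37 to 0.48). With all *Gria2* transcripts summed it was 0.18 (adjusted p = 0.031). The transcript NM_013540 of *Gria2* was called (log2 fold change 0.20, adjusted p = 0.033), where 26.7% of all transcripts were called higher, though not in 9 of 16 alternatives, the 3 scalings among them. *Gria4* (NM_001113180) had 8.19, 8.58 and 8.51 in WT and 10.9, 9.63 and 10.2 in *Nrl*-/- libraries, without overlap (log2 fold change 0.25, SE 0.06, adjusted p = 0.013), and it was not past the adjusted p without *Nrl*-/- replicate 1 (0.076). With all *Gria4* transcripts summed the log2 fold change was 0.14 (adjusted p = 0.048). Its other transcripts, NM_019691 and NM_001113181, had log2 fold changes of 0.08 and -0.01 and were not called. *Gria1* had means of 5.20 ± 0.365 and 5.15 ± 0.154 (SD, n = 3). *Gria3* had means of 9.93 ± 0.0758 in WT and 11.0 ± 0.485 in *Nrl*-/- retina (SD, n = 3), without overlap. It was not called (log2 fold change 0.13, SE 0.06, adjusted p = 0.099 from limma). At an unadjusted p under 0.05, 3 of the 4 AMPA subunits were higher and 0 lower by limma. An ordinary linear model had 2 higher and 0 lower. These counts are on the deposited scale. Over the whole class the subunit shares were close between genotypes, with *Gria2* at 47.2% ± 1.77 in WT and 48.3% ± 0.777 in *Nrl*-/- retina and *Gria4* at 27.8% ± 0.677 and 27.9% ± 0.594 (SD, n = 3).

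The kainate receptors were led by *Grik1* and *Grik5*. *Grik1*, the GluK1 subunit used by OFF bipolar cells, had an FPKM of 13.4, 12.5 and 11.8 in WT and 15, 15.6 and 14.5 in *Nrl*-/- libraries for NM_010348. The genotypes did not overlap, and the log2 fold change was 0.24 (SE 0.06, adjusted p = 0.016 from limma). Without *Nrl*-/- replicate 1 or 2 it was 0.24 and 0.22 and did not pass (adjusted p = 0.062 and 0.081). The other transcript, NM_146072, was at 0.20 on that scale (adjusted p = 0.064). *Grik5*, a subunit that needs a partner to form a channel, had 15.9, 13 and 13.4 in WT and 14, 14.1 and 14.5 in *Nrl*-/- libraries, where the genotypes overlapped (log2 fold change 0.01, SE 0.08, adjusted p = 0.91). *Grik2* and *Grik3* were low, with means of 2.72 and 1.66 in WT and 2.76 and 1.73 in *Nrl*-/- retina.

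By the main transcript of each, 0 of the 4 NMDA receptor genes were called by limma, with 0 at an unadjusted p under 0.05 by limma or an ordinary linear model. *Grin1*, the subunit that every NMDA receptor holds, had an FPKM of 8.38, 5.77 and 4.94 in WT and 6.01, 5.96 and 5.41 in *Nrl*-/- libraries for NM_001177657. WT replicate 1 stood above the other 5 libraries. The log2 fold change was -0.09 (SE 0.15, adjusted p = 0.67), and 0.10 (adjusted p = 0.38) without WT replicate 1. The transcript NM_008169 of *Grin1* had 4.13, 3.41 and 3.29 in WT and 4.21, 4.43 and 4.54 in *Nrl*-/- libraries, which did not overlap, and was not called (log2 fold change 0.23, SE 0.08, adjusted p = 0.059, unadjusted p = 0.023). *Grin1* made up 79.4% ± 0.96 of the summed FPKM of the class in WT and 81.0% ± 0.336 in *Nrl*-/- retina (SD, n = 3). The glutamate-binding subunits *Grin2b* and *Grin2d* and the glycine-binding *Grin3a* were near the lower limit of the table, with means of 1.11, 1.14 and 1.67 in WT and 0.888, 0.956 and 1.67 in *Nrl*-/- retina. The delta receptor *Grid1*, a relative of the ionotropic receptors that organizes synapses, was not called. It had 4.28, 3.79 and 4.10 in WT and 3.86, 3.76 and 3.35 in *Nrl*-/- libraries (log2 fold change -0.12, SE 0.08, adjusted p = 0.25).

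The 5 metabotropic receptors reported had 0 calls by limma, with 0 at an unadjusted p under 0.05 by limma and 1 higher and 0 lower by an ordinary linear model. Group III receptors lower cyclic AMP and act mainly at presynaptic terminals. Of these, *Grm8* had 6.26, 7.11 and 5.32 in WT and 5.68, 5.63 and 4.90 in *Nrl*-/- libraries, with overlap (log2 fold change -0.17, SE 0.10, adjusted p = 0.21). Without WT replicate 3 it was -0.26 (adjusted p = 0.042), without WT replicate 2 it was -0.08 (0.53), and without *Nrl*-/- replicate 3 it was -0.11 (0.49). *Grm7* had means of 4.57 ± 0.507 and 4.76 ± 0.0918 and *Grm4* of 1.92 ± 0.552 and 2.02 ± 0.326 (SD, n = 3). *Grm2*, the group II receptor of starburst amacrine cells, had 4.58, 2.73 and 2.73 in WT and 3.32, 3.5 and 2.66 in *Nrl*-/- libraries. WT replicate 1 was again the highest, and the log2 fold change was -0.04 (SE 0.16, adjusted p = 0.86) and 0.15 without that library (adjusted p = 0.29). In group I, whose receptors raise calcium, *Grm5* had 1.89, 1.87 and 1.77 in WT and 2.01, 2.01 and 1.95 in *Nrl*-/- libraries (log2 fold change 0.07, SE 0.07, adjusted p = 0.47).

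WT replicate 1 stood apart in many receptor genes. It was the highest of the 6 libraries in 15 of 36 receptors, where this held for 19.4% of all genes, and at least 0.2 above both other WT libraries on the log2 scale in 12 of 36, where this held for 8.84%. The largest gaps to the mean of the other WT libraries were those of *Grm2* and *Glra1* (each 0.58), *Grin1* (0.56), *Gabbr2* (0.47) and *Grm4* (0.41), and the lowest value was that of *Gabrb1* (-0.35). The gap rose with the GC content of the longest annotated coding transcript. Across the 36 receptors Pearson's r was 0.70 and Spearman's rho 0.71, and over 11994 genes of the table they were 0.51 and 0.55. The points share the same 3 libraries, and genes are no replicates. *Grin2d*, *Grik5*, *Grm4* and *Grm2* had GC contents of 65.0%, 62.3%, 61.4% and 59.9%, and *Gabrg1*, *Gria2* and *Gabrb2* of 35.3%, 38.1% and 39.9%. The log2 fold changes of the receptors and GC content had a rho of -0.42 with all libraries and of -0.01 without WT replicate 1. Pearson's r was -0.34 and -0.07. Over all genes rho was -0.11 and 0.01. The part of GC content in the fold changes was not tested. With WT replicate 1 left out, limma called 3 receptors higher and 0 lower, against 27.7% and 9.89% of all genes. The 3 were *Gabra2*, *Gria4* and *Grik1*, and the median over the receptors was 0.09 against 0.09 over all genes.

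**Figure D4:**
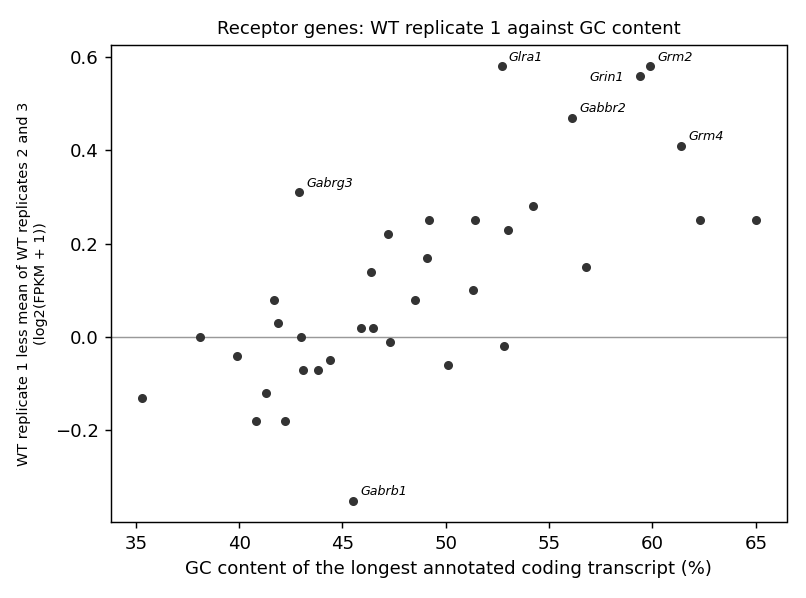
For each receptor gene, log2(FPKM + 1) of WT replicate 1 less the mean of WT replicates 2 and 3 (vertical axis) against the GC content in percent of the longest annotated coding transcript (horizontal axis). Genes with the highest GC content lie above 0, and most of those with the lowest lie at or below it. The largest gaps are those of *Grm2* and *Glra1*, each at 0.58, with GC contents of 59.9% and 52.7%.

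The TopHat workflow, which aligns across splice junctions, gave 1 pooled FPKM per genotype for each Ensembl transcript, with no replicates and so no test. Summed over its transcripts in the deposited table, *Gabra2* was at 4.34 in WT and 9.82 in *Nrl*-/- retina, a ratio of 2.26. *Gabra4* had a ratio of 1.24, *Grik1* of 1.2, *Gabrb2* of 1.11 and *Gria4* of 1.1. The other high ratio was that of *Glra4*, at 1.5 from 1.10 and 1.65, and the lowest were those of *Grin2b* and *Grin2d*, at 0.72 and 0.754, both from sums below 2. The rho and GABA-B genes lay between 0.981 and 1.06. Both workflows read the same 6 libraries.

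Proteins that hold or traffic these receptors and the carriers of their transmitters were compared in 3 lists. Of 35 listed auxiliary subunits and scaffolds of glutamate receptors, 7 were higher (20%, against 28.3% of all genes) and 2 lower (5.71%, against 10.2%), with a median log2 fold change of 0.04 (0.09 over all genes). The scaffold gene *Shank2* had 5.96, 4.62 and 4.28 in WT and 10.2, 10.2 and 9.48 in *Nrl*-/- libraries (log2 fold change 0.89, SE 0.10, adjusted p = 1.4e-04 from limma), and *Homer3*, which ties group I receptors to calcium stores, had 4.74, 4.54 and 3.79 and then 2.76, 2.41 and 2.84 (log2 fold change -0.54, SE 0.09, adjusted p = 0.0015). The postsynaptic adhesion gene *Lrrtm4* and the AMPA receptor partner *Shisa7* rose by 0.44 and 0.33. *Shisa7* was not past the adjusted p without *Nrl*-/- replicate 1 or 3 (0.058 and 0.055), with an ordinary linear model (0.063), or with median-of-ratios or upper-quartile scaling (0.057 and 0.054). With either of these scalings 2 of the list were higher and 5 lower, and with quantile normalization 6 and 5.

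Of 15 listed scaffolds and partners of GABA and glycine receptors, 7 were higher (46.7%, against 28.3% of all genes) and 1 lower (6.67%, against 10.2%), with a median of 0.17 (0.09 over all genes). *Plcl1*, which encodes a protein that binds GABA-A receptor beta subunits and aids their trafficking, had 3.29, 3.38 and 2.63 in WT and 7.69, 7.82 and 8.65 in *Nrl*-/- libraries (log2 fold change 1.15, SE 0.09, adjusted p = 1.1e-05). *Gabarap*, which encodes a protein first found bound to GABA-A receptors and also active in autophagy, had 36.5, 40.4 and 38.4 in WT and 63.0, 63.0 and 61.7 in *Nrl*-/- libraries (log2 fold change 0.69, SE 0.05, adjusted p = 1.3e-05). Its relative *Gabarapl1* and the trafficking adaptor *Trak2* were higher by 0.55 and 0.49. The member that was lower was *Nlgn2*, the adhesion protein of inhibitory synapses, with means of 28.9 ± 3.62 and 21.8 ± 1.13 (SD, n = 3).

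Of 18 genes of transmitter synthesis, loading and uptake, 3 were higher (16.7%, against 28.3% of all genes) and 0 lower (against 10.2%) by limma, with a median of -0.01 (0.09 over all genes). *Slc1a7*, the glutamate carrier of photoreceptor and bipolar cell terminals, had 43.6, 42.1 and 36.3 in WT and 105, 105 and 93.4 in *Nrl*-/- libraries (log2 fold change 1.30, SE 0.08, adjusted p = 2.6e-06), and *Slc1a2*, the glutamate carrier of cones and bipolar cells, had 21.2, 23.3 and 21.9 and then 43.3, 43.9 and 47.2 (log2 fold change 0.99, SE 0.06, adjusted p = 2.2e-06). *Slc1a3*, the glial glutamate carrier, was called at 0.17 (adjusted p = 0.04) on the deposited scale and in 6 of 17 alternatives.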

How the data were processed

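Whole retinas of 3 WT and 3 *Nrl*-/- mice at postnatal day 21 were sequenced by the authors with a TruSeq RNA kit, which does not mark strand. Per the paper's methods, reads were aligned with BWA to mm9, and FPKM values per refFlat isoform were deposited as log2(FPKM + 1) with 2 decimals, and every transcript in the table reached an FPKM of 1 in some library. The alignment did not cross splice junctions, which lowers genes with short exons, and reads of isoforms and of overlapping genes were divided by the authors' software. The deposited TopHat table holds 1 pooled FPKM per genotype. The tables hold no counts, so counting error could not be computed from them, and the study's own totals of aligned reads were not used here. Columns with the authors' own fold changes and p-values were not used.

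The model was limma (version 3.58.1, R 4.3.3), with a trended prior and no covariate. It was tested on simulated data with changes of about 1.5-fold or more. Smaller changes, such as those of *Gabra4*, *Gabrb2*, *Gria4* and *Grik1*, were not simulated. Python 3.11.15, numpy 2.4.6, pandas 2.3.3 and matplotlib 3.10.9 were used. Gene positions are of NCBIM37 and were found for all 36 receptors. Promoter windows are of RefSeq on GRCm38.p6, placed on NCBIM37 by exact match. By rule, values are given in full for members called with a fold of at least 1.5, for the highest member of each subunit class, and for up to 4 called genes of each partner list. Other called members, other isoforms, *Gabrr3*, *Gria3* and *Nlgn2* were added after their values were seen. Some genes that the rule or the lists cover are not reported here, and every count over receptors or lists is over the genes reported. Members and lists were chosen with earlier results of these data known. Alternatives were pseudocounts of 0.1 and 0.5, a filter that kept FPKM of 1 or more in 3 or more libraries, 3 scalings, no trend, a robust prior, an ordinary linear model, a block for the replicate number, the sum of FPKM over a gene's transcripts, omission of each library in turn, and a call by fold of at least 1.5 and unadjusted p under 0.05.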

Additional observations from a re-analysis of the deposited data

How the results depend on the processing

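*Gabra2* was past the adjusted p in each of 17 alternatives. The count of receptors called higher, 5, was 1 with median-of-ratios scaling, 1 with upper-quartile scaling, 1 with quantile normalization, 2 with an ordinary linear model, 1 by a fold of at least 1.5 with an unadjusted p under 0.05, and 1 to 6 without single libraries. The count called lower was 0 to 1 without single libraries, the 1 being *Grm8* without WT replicate 3. Over all genes, 3440 were higher and 1243 lower (28.3% and 10.2%), and 2084 and 1888 with median-of-ratios scaling (17.2% and 15.5%). An ordinary linear model called 20.5% of all genes higher and 7.9% lower. Without single libraries 19.5% to 29.4% of all genes were higher and 7.67% to 10.6% lower. Signs near 0 turned with the scaling. With median-of-ratios, upper-quartile and quantile normalization the log2 fold change was -0.09, -0.09 and -0.10 for *Grik5*, -0.08, -0.08 and -0.11 for *Gabbr1*, -0.05, -0.05 and -0.07 for *Glrb* and -0.02, -0.02 and -0.01 for *Gabra3*, and with quantile normalization -0.04 for *Gabrr1*. Without single libraries it was -0.04 to 0.10 for *Grik5*, -0.02 to 0.10 for *Gabbr1*, -0.01 to 0.10 for *Glrb*, -0.23 to 0.10 for *Grin1* and -0.14 to 0.15 for *Grm2*. The cause was not tested in any of these. Same-numbered WT and *Nrl*-/- libraries had residual correlations of 0.0286, 0.0237 and 0.124, so the numbers were not taken as pairs. With the replicate block 4 receptors were called higher and 0 lower, against 27.6% and 10.3% of all genes. In that fit *Gabrb2* and the *Gria2* transcript NM_013540 were not past the adjusted p (0.07 and 0.056), nor was *Slc1a3* (0.058).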
